A study of Heliocidaris erythrogramma with 5 samples.

Results

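The last step of a single-cell RNA-seq time course in the sea urchin *Heliocidaris erythrogramma* (*He*) was compared here, larvae at 60 against 56 hours post-fertilization (hpf). The larvae of this species live on the reserves of the egg and do not feed. Each library was made from dissociated, methanol-fixed larvae, and the labels name no strain, sex or treatment, so the 60 hpf and 56 hpf groups differ in age alone as far as the labels go. For the younger library the deposited file name and the study's methods give 54 hpf where the label gives 56 hpf, and the label was kept. Members were the cells with more than 200 genes, fewer than 10000 unique molecular identifiers (UMIs) and fewer than 4000 genes. These were 8972 cells at 60 hpf and 4106 cells at 56 hpf, together 13078 of the 26740 cells kept in all 5 libraries. The UMIs of each library's cells were summed and scaled to CPM, the usual depth-scaled unit of counts relative to the library total.

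The bilateral larval body, with its ciliated ectoderm, nervous system and pigment cells, surrounds the adult rudiment, which forms on the left side from ectoderm and the left coelomic pouch and builds the first tube feet (podia), the adult nervous system and the adult skeleton. The endoplasmic reticulum (ER), ribosome and proteasome lists used below hold the machinery that makes, folds and removes proteins. Neural transcription factors such as *Phox2* and *NeuroD* act in differentiating neurons of many animals, and pigment cells of sea urchins make the red pigment echinochrome through the enzyme encoded by *Pks1*.

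Several genes have a known place in larvae of this age, because the study stained them by hybridization chain reaction at 56 hpf. The probe pairs show what was detected there. A pair binds next to each other on the transcript, and the first pair in the probe set of each of 4 genes is given, 5′ to 3′, with the 25 bases that are complementary to the transcript in capitals and the amplifier part in lower case.
dynlc2, first probe: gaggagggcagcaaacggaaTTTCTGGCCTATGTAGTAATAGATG
dynlc2, second probe: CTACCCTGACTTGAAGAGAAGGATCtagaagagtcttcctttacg
foxq2, first probe: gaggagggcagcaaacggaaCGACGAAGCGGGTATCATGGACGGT
foxq2, second probe: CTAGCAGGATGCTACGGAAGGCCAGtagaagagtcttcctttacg
hox7, first probe: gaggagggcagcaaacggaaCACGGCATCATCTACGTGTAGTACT
hox7, second probe: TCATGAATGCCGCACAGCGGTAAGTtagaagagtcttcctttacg
hmx, first probe: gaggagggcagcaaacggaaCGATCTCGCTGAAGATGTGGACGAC
hmx, second probe: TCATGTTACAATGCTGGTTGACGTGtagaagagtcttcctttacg
These genes were chosen because *dynlc2* was stained at the tips of the primary podia, *foxq2* at the animal pole, *hox7* in the posterior ectoderm and part of the rudiment, and *hmx* in neuron-like ectodermal cells and in the rudiment. No genome was used here, so the place of these bases in the genome is not given.

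The 60 hpf library had the largest total of the series, 12136079 UMIs, with a median of 1020.5 UMIs and 523 genes per cell and no kept cell below 500 UMIs. The 56 hpf library had the smallest total, 4193645 UMIs, with a median of 814 UMIs and 481 genes per cell and a lowest cell of 379 UMIs, and the medians per cell of both were below those of the 3 younger libraries. Both libraries shared 5 cell barcodes. Since there was 1 library per age, age and library cannot be told apart, no p-value was computed, and the 95% intervals given below cover counting error only. In sums over whole larvae, fewer cells of a type and less RNA per cell cannot be told apart either. Doublets were not removed.

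Most genes were slightly lower at 60 hpf than at 56 hpf, while a small number of abundant genes took a larger share of the UMIs. Of 10365 genes with a mean of at least 5 CPM over both libraries, 59 (0.569%) passed 2-fold upward and 673 (6.49%) passed it downward at 60 hpf on a scale of log2(CPM + 1), 7.06% in either direction. Counting intervals of the ratio lay above 1 for 9.63% of genes and below 1 for 44.6%. The median log2 difference of all these genes was -0.28, and 25.6% were above 0. The shift followed abundance, with a median of -0.36 in 2537 genes between 5 and 10 CPM, -0.18 in 1326 genes between 50 and 100 CPM and 0.16 in 114 genes of 1000 CPM and above. These 114 genes held 48.0% of UMIs at 60 hpf and 41.0% at 56 hpf. The gene with the most UMIs, named here for its abundance, was *FerHc*, a ferritin heavy chain that stores iron, at 77156 CPM at 60 hpf and 54441 CPM at 56 hpf. The next, HER_47969.t1, carries no symbol and stood at 36715 CPM at 60 hpf and 21382 CPM at 56 hpf.

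The split into higher and lower genes depended on the scaling. Size factors from the median of ratios gave 206 higher and 197 lower genes, TMM factors gave 235 and 170, and differences read from the median of all genes gave 173 (1.67%) and 241 (2.33%). Differences are given below from CPM, and list medians also relative to that of all genes. Counts past 2-fold on that relative scale are added where they differ. By CPM, counts of list members stand against 6.49% of all genes lower and 0.569% higher. On the relative scale they stand against 2.33% lower and 1.67% higher.

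**Figure D1:**
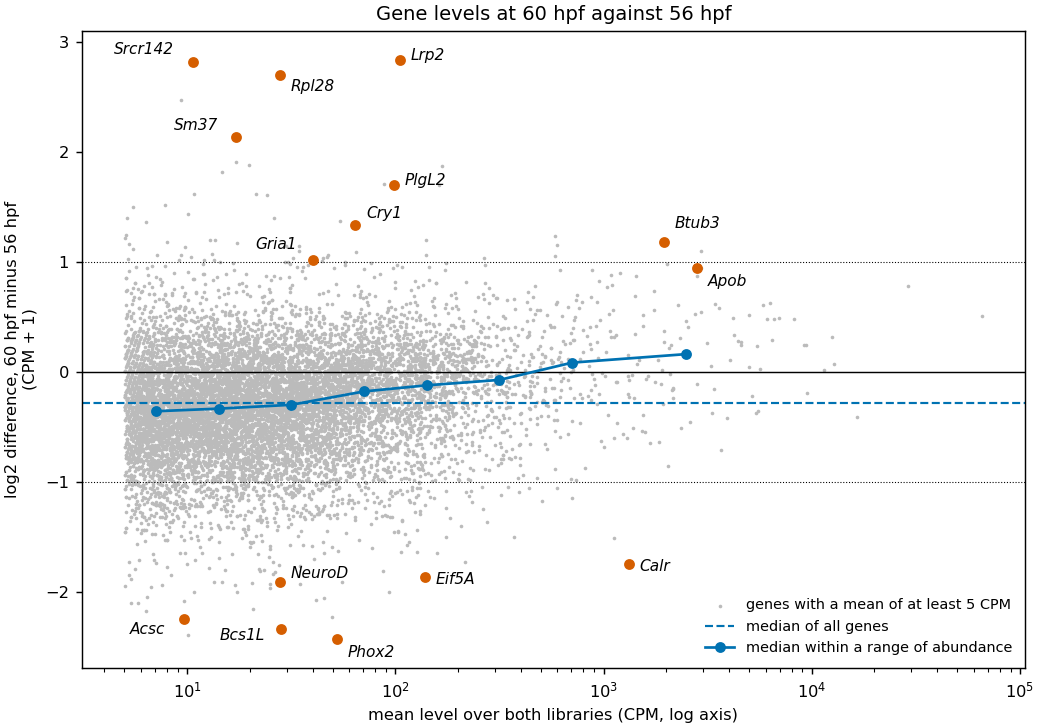
Each gray point is 1 gene, with its mean level in CPM on a log axis and its log2 difference, 60 hpf minus 56 hpf, on the vertical axis. The dashed line is the median of all genes at -0.28, the blue points are medians within ranges of abundance, and the dotted lines mark 2-fold. *Phox2* and *Bcs1L* lie lowest among the labelled genes and *Lrp2*, *Srcr142* and *Rpl28* highest.

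The clearest group of lower genes was the machinery for protein entry into the ER and folding there. Of 52 measured members, 22 were at least 2-fold lower at 60 hpf and 0 were past 2-fold upward, and the median log2 difference was -0.94, or -0.65 relative to all genes. Relative to that median, 11 members were at least 2-fold lower. The summed level of the list was 3107 CPM at 60 hpf and 6849 CPM at 56 hpf, and in the earlier libraries it was 7118, 5604 and 5505 CPM at 36, 42 and 48 hpf, so the 60 hpf library had the lowest sum of the 5. At 60 hpf, 41 of the 52 members were below their level in every other library. Over all genes this share was not counted. Of the 673 genes at least 2-fold lower, 518 were also lowest at 60 hpf. This list was added after such genes had been seen among the lower ones.

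The most abundant lower gene was *Calr* (HER_7409.t1), which encodes calreticulin, a calcium-binding chaperone of the ER. It had 605 CPM at 60 hpf and 2034 CPM at 56 hpf, and 1775, 1200 and 1557 CPM at 36, 42 and 48 hpf. It was 3.36-fold lower at 60 hpf (interval 3.26 to 3.47) and lay below all 4 other libraries. *Ssr1*, a subunit of the translocon-associated complex, stood at 99.5 CPM at 60 hpf and 332 CPM at 56 hpf. Another subunit, *Ssr4*, had 11.1 CPM at 60 hpf and 42.0 CPM at 56 hpf. *Srp54*, which binds signal sequences as they leave the ribosome, was lowest relative to 56 hpf in the list, with 1.65 CPM at 60 hpf and 10.97 CPM at 56 hpf, from 20 and 46 UMIs. *Ergic1*, a protein of the compartment between ER and Golgi, had 9.81 CPM at 60 hpf and 40.1 CPM at 56 hpf, and *Hsp40F*, a DnaJ-type co-chaperone, 22.7 CPM at 60 hpf and 88.2 CPM at 56 hpf. *Sec61a2*, which encodes the channel itself, differed less, with 468 CPM at 60 hpf and 617 CPM at 56 hpf. *Calr*, *Ssr1*, *Ssr4* and *Sec61a2* were picked after their values were seen.

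Other lists of growth and protein turnover were shifted in the same direction by less. In the proteasome list, which was also added later, 4 of 29 members were at least 2-fold lower and 0 higher, with a median of -0.74 (-0.46 relative to all genes), and 2 were lower on the relative scale. *Psmd1_1*, a subunit of the regulatory particle, had 21.5 CPM at 60 hpf and 69.4 CPM at 56 hpf. Among translation initiation and elongation factors, the third added list, 9 of 47 were lower and 0 higher, with a median of -0.67 (-0.39 relative to all genes), and 3 were lower on the relative scale. *Eif5A*, a factor that assists peptide bond formation, had 59.2 CPM at 60 hpf, against 219 CPM at 56 hpf and 243 to 308 CPM in the 3 younger libraries. It was 3.70-fold lower at 60 hpf (interval 3.35 to 4.08). *Ef1bd*, an exchange factor of elongation, had 11.5 CPM at 60 hpf and 40.3 CPM at 56 hpf. The summed level of these factors was nevertheless 7870 CPM at 60 hpf and 7236 CPM at 56 hpf, and 2 members had a counting interval above 1.

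List medians of energy metabolism and cell division were below that of all genes as well, with few single genes past 2-fold. On the relative scale 4 of 58 members were lower in oxidative phosphorylation, 2 of 36 in DNA replication and 0 of 26 in mitosis, against 2.33% of all genes, and the CPM counts stand against 6.49% of all genes. In oxidative phosphorylation, 8 of 58 members were at least 2-fold lower and 0 higher (median -0.56, or -0.28 relative to all genes), and 2 features named *Atp5l*, a subunit of ATP synthase, had 61.3 and 54.7 CPM at 60 hpf against 193.1 and 151.2 CPM at 56 hpf. *Ndufa13_1*, a subunit of complex I, had the list's largest rise, with 921 CPM at 60 hpf and 567 CPM at 56 hpf. In DNA replication, 5 of 36 members were lower and 0 higher (median -0.57, or -0.29 relative to all genes). The replicative helicase subunit *Mcm6* had 10.1 CPM at 60 hpf and 29.1 CPM at 56 hpf. In mitosis, 3 of 26 were lower and 0 higher (median -0.64, or -0.36 relative to all genes), and the topoisomerase *Top2a_1* had 60.0 CPM at 60 hpf and 132 CPM at 56 hpf. Summed levels of both division lists were lowest at 60 hpf and had been highest at 36 hpf. The mitosis list held 3113, 2214, 1738, 1547 and 980 CPM from 36 to 60 hpf, and the replication list 2685, 1856, 1465, 1400 and 884 CPM.

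Single genes outside these lists were among the 12 largest falls. *Bcs1L*, an assembly factor of complex III, had 8.65 CPM at 60 hpf and 47.9 CPM at 56 hpf. *Pycr1L*, related to the last enzyme of proline synthesis, had 16.7 CPM at 60 hpf and 82.0 CPM at 56 hpf. *Ranbp1*, a cofactor of nuclear transport, had 15.4 CPM at 60 hpf and 68.0 CPM at 56 hpf. For each of these 3 genes the 60 hpf library was the lowest of the 5. *Cyb5*, an electron carrier, *Polb*, a DNA repair polymerase, *PppL_164* and *Fn3_4* completed this group, at 4.01- to 4.96-fold lower.

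Ribosomal proteins went the other way. Of 65 measured members, 7 passed 2-fold upward at 60 hpf and 0 downward, with a median of 0.33, or 0.62 relative to all genes, and 14 were higher on the relative scale. Their summed level was 142438 CPM at 60 hpf and 114840 CPM at 56 hpf, and both were below the 164750 to 239809 CPM of the 3 younger libraries. The interval lay above 1 for 49 members and below 1 for 9. Of the 7, the 3 largest rises were in minor copies of their gene. *Rpl28* (HER_9122.t1) had 48.9 CPM at 60 hpf and 6.68 CPM at 56 hpf, whereas another feature named *Rpl28* had 4937 CPM at 60 hpf and 4161 CPM at 56 hpf. *Rpl34* (HER_8482.t1) had 135 CPM at 60 hpf and 40.8 CPM at 56 hpf, and *Rpl23* (HER_38102.t1) 250 CPM at 60 hpf and 76.1 CPM at 56 hpf. Reads of near-identical copies could have been divided between features, so these 3 values are uncertain. *Rps15a* had the list's largest fall, with 467 CPM at 60 hpf and 920 CPM at 56 hpf.

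**Figure D2:**
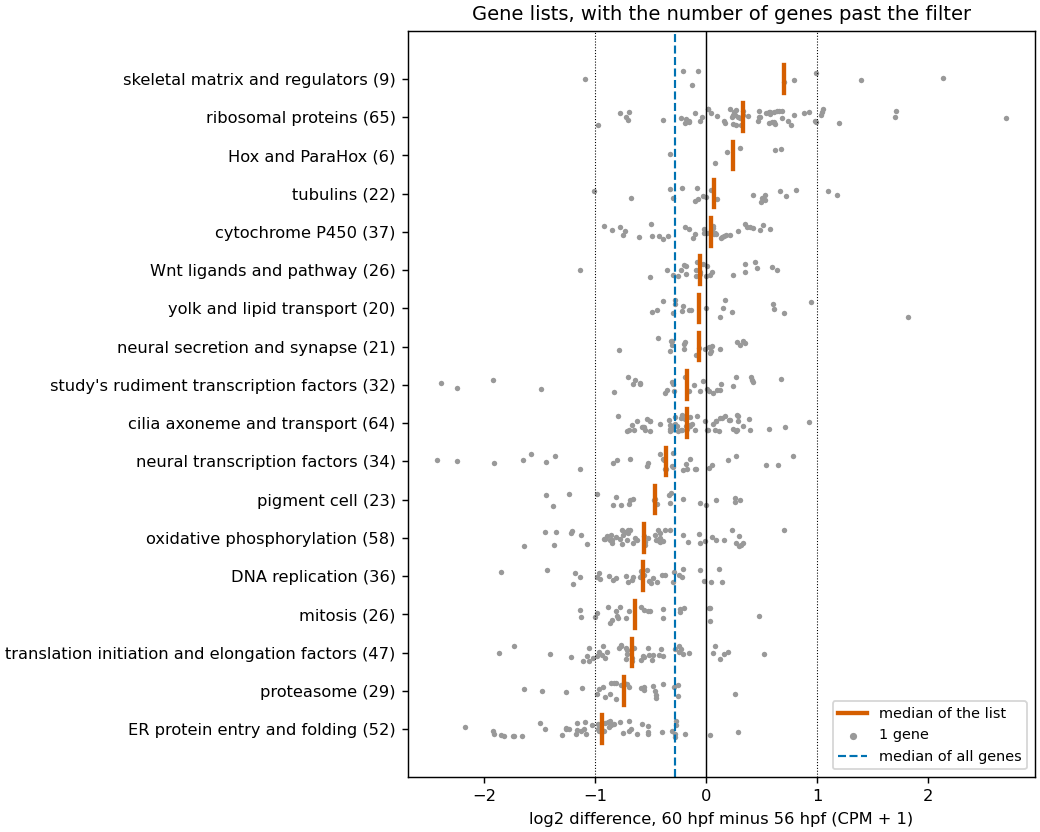
Gray points are genes and orange bars list medians of the log2 difference, 60 hpf minus 56 hpf, with the number of genes past the filter in parentheses and the median of all genes as a dashed line. Among the lists drawn, ER protein entry and folding has the lowest median, -0.94, and the skeletal and ribosomal lists have the highest, 0.70 and 0.33. The skeletal median is the value of *Jun*.

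Cytoskeletal and lipid-transport genes were among the most abundant that were higher. The list of tubulins had 2 members at least 2-fold higher and 1 lower of 22 (median 0.07, or 0.35 relative to all genes), or 4 and 0 on the relative scale, and its sum was 20497 CPM at 60 hpf and 13166 CPM at 56 hpf. *Btub3* (HER_45861.t1), a beta-tubulin, had 2690 CPM at 60 hpf and 1190 CPM at 56 hpf, and was 2.26-fold higher (interval 2.19 to 2.33). *Atub13* (HER_35876.t1), an alpha-tubulin that the study used as a ciliary band marker, had 3984 CPM at 60 hpf and 1861 CPM at 56 hpf. Other features carry the same 2 symbols, so reads of near-identical tubulins could have been divided. *Tektin3*, a filament protein of ciliary microtubules, had 811 CPM at 60 hpf and 427 CPM at 56 hpf, but the cilia list as a whole had 0 of 64 members past 2-fold in either direction, 1 upward on the relative scale, and a median of 0.11 relative to all genes. *Apob* (HER_7595.t1), a large lipid-carrying protein, had 3674 CPM at 60 hpf and 1913 CPM at 56 hpf, above the 1339 to 2439 CPM of the younger libraries. The list for yolk and lipid transport, which includes it, summed to 4284 CPM at 60 hpf and 2466 CPM at 56 hpf. *Apob* (HER_7595.t1) made up most of both sums. The list's median was -0.07, or 0.21 relative to all genes. On the relative scale 2 members passed 2-fold upward, and by CPM 1 of its 20 members, *YP30/FascL*, was past 2-fold, with 23.5 CPM at 60 hpf and 5.96 CPM at 56 hpf.

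The gene with the largest rise on the log2(CPM + 1) scale was *Lrp2* (HER_19399.t1), which encodes a member of the LDL-receptor family of endocytic receptors. It had 184 CPM at 60 hpf and 25.04 CPM at 56 hpf, and 67.7, 112 and 59.9 CPM at 36, 42 and 48 hpf. The 60 hpf library was the highest and the 56 hpf library the lowest of the 5, and the ratio was 7.37 (interval 6.06 to 9.05). After every cell was thinned to 500 UMIs, 8.10% of cells at 60 hpf and 1.00% at 56 hpf had a UMI of it. A more abundant feature with the symbol *Lrp2*, HER_23152.t1, had 7044 CPM at 60 hpf and 4625 CPM at 56 hpf. *Cry1*, a cryptochrome, had 92.3 CPM at 60 hpf and 36.0 CPM at 56 hpf. *Psap*, a precursor of lysosomal activator proteins, had 196 CPM at 60 hpf and 84.7 CPM at 56 hpf, and *FbsL_2*, related to fibrosurfin, 819 CPM at 60 hpf and 347 CPM at 56 hpf. *Hebp2L1* and *C3orf20L* were 3.27-fold and 2.65-fold higher. In each of these 5 genes the level at 60 hpf was the highest of the 5 libraries.

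A few genes were higher through very few cells. *PlgL2*, related to plasminogen, a secreted protease precursor, had 150.5 CPM at 60 hpf and 45.8 CPM at 56 hpf, against 1.05 to 1.63 CPM in the younger libraries. At 56 hpf, however, 1 cell held 188 of its 192 UMIs, and at 60 hpf 55 cells held 1827 UMIs, with 479 in the highest cell. *Srcr142*, a scavenger receptor of the kind found in sea urchin immune cells, had 19.5 CPM at 60 hpf and 1.91 CPM at 56 hpf, from 237 UMIs in 17 cells and 8 UMIs in 3 cells. *Sm37*, a matrix protein of the skeleton, had 28.5 CPM at 60 hpf and 5.72 CPM at 56 hpf, from 346 UMIs in 74 cells and 24 UMIs in 8 cells. For these 3 genes the counting interval understates the uncertainty, since UMIs of 1 cell are not independent of each other.

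Most skeletal genes named here were measured at low levels, and they did not all move together. Of 9 members past the filter, 2 were at least 2-fold higher and 1 lower, with a median of 0.70. That median fell on *Jun*, also counted among the immediate early and stress genes, at 364 CPM at 60 hpf and 223 CPM at 56 hpf. *Jun* and *Tgif* made up most of the list's sum, 677 CPM at 60 hpf and 643 CPM at 56 hpf. Relative to all genes the median was 0.98, 8 of the 9 lay above the median gene, and 4 were at least 2-fold higher and 0 lower. Beside *Sm37*, *P16*, which is needed for mineral deposition in other sea urchins, had 7.91 CPM at 60 hpf and 2.38 CPM at 56 hpf from 96 and 10 UMIs, and *Msp130r2*, related to a surface glycoprotein of skeletogenic cells, 22.3 CPM at 60 hpf and 10.7 CPM at 56 hpf. *Tgif*, a transcription factor of the skeletogenic network, had 139 CPM at 60 hpf and 298 CPM at 56 hpf. *Alx1*, the factor that defines skeletogenic cells, had 28 UMIs (2.31 CPM) at 60 hpf and 26 UMIs (6.20 CPM) at 56 hpf, below the filter. The skeletal marker *Sm50* had 17 UMIs at 60 hpf and 4 UMIs at 56 hpf.

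**Figure D3:**
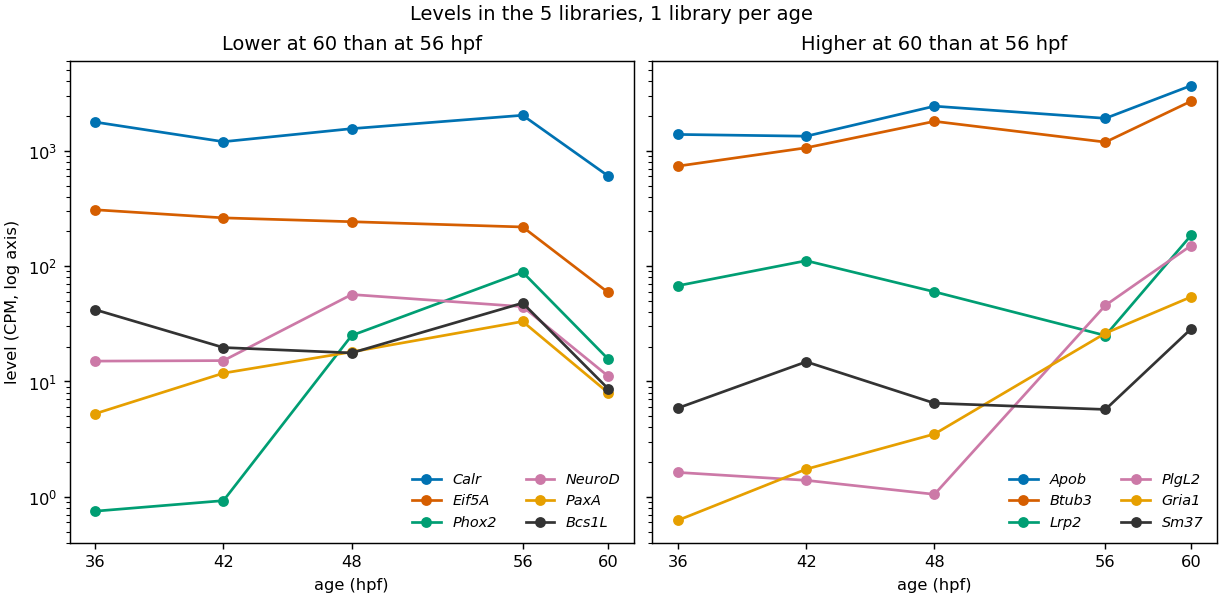
Levels in CPM on a log axis in the 5 libraries, 1 per age, for 6 genes that were lower (left) and 6 that were higher (right) at 60 hpf than at 56 hpf. *Calr*, *Eif5A*, *NeuroD* and *Bcs1L* are lowest at 60 hpf, and *Phox2* stands at 88.7 CPM at 56 hpf and 15.7 CPM at 60 hpf after less than 1 CPM at 36 and 42 hpf.

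The largest fall of any gene on the log2(CPM + 1) scale was that of a neural transcription factor. *Phox2* had 15.7 CPM at 60 hpf and 88.7 CPM at 56 hpf, and was 5.67-fold lower at 60 hpf (interval 4.74 to 6.78). The younger libraries had 0.75, 0.93 and 25.1 CPM, so its level at 60 hpf lay between those at 42 and 48 hpf. *NeuroD*, a proneural factor, had 11.1 CPM at 60 hpf and 44.6 CPM at 56 hpf. *Acsc*, an achaete-scute factor that acts early in neurogenesis, had 2.72 CPM at 60 hpf and 16.7 CPM at 56 hpf. Both were lowest at 60 hpf. In all, 8 of 34 measured neural factors were at least 2-fold lower and 0 higher, against 6.49% and 0.569% of all genes. Among the 8 was *Scratch*, named after its values were seen, with 15.1 CPM at 60 hpf and 47.0 CPM at 56 hpf. On the relative scale 7 of 34 were lower and 1 higher, against 2.33% and 1.67% of all genes. The list's median was -0.36, or -0.08 relative to all genes, so its middle lay near the general shift. *Hlf* and *FoxQ2_1* had the list's largest rises, at 184 and 83.5 CPM at 60 hpf against 117 and 48.2 CPM at 56 hpf.

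Genes of transmitter handling, channels and light reception moved in both directions. In the transmitter list, 1 of 16 members was at least 2-fold higher and 2 lower. This turned to 2 higher and 1 lower on the relative scale, and the median was 0.35 relative to all genes. Among the 5 libraries, 10 of the 16 were highest at 60 hpf, a share that was not counted over all genes. *Slc18a2*, named for the vesicular monoamine transporter, had 7.66 CPM at 60 hpf and 2.86 CPM at 56 hpf, from 93 and 12 UMIs. *Slc32a1_1*, named for the vesicular transporter of GABA and glycine, had 8.82 CPM at 60 hpf and 5.01 CPM at 56 hpf. *Gria1*, named for an AMPA-type glutamate receptor, had 54.1 CPM at 60 hpf and 26.2 CPM at 56 hpf after 0.63, 1.74 and 3.50 CPM at 36, 42 and 48 hpf. Of 51 measured channel genes, 2 were at least 2-fold higher, *Gria1* and *Chrnb3L*, and 0 lower, or 3 and 0 on the relative scale, with a median of 0.11 relative to all genes. *Opsin3.1* had 16.5 CPM at 60 hpf and 7.63 CPM at 56 hpf, while in its list of 21 light-reception genes 2 retinol dehydrogenases, *Rdh11_2* and *Rdh8_9*, were 2.46-fold and 2.48-fold lower. On the relative scale that list had 1 member higher and 0 lower, with a median of -0.0085. The neural secretion and synapse list had 0 of 21 members past 2-fold and a median of 0.21 relative to all genes.

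To place these genes, cells were thinned to 500 UMIs and classed by the study's markers, with at least 3 UMIs over at least 2 markers of a class. Thinning left all 8972 cells at 60 hpf and 3597 at 56 hpf. Neural-marker cells (*CalmL1*, *Secrtag*, *Syt4*) were 562 (6.26%, Clopper-Pearson interval 5.77 to 6.79) at 60 hpf and 215 (5.98%, interval 5.22 to 6.80) at 56 hpf. *CalmL1* had a UMI in 95.7% of all thinned cells at 60 hpf and 92.5% at 56 hpf and so did not mark neurons, and the class rested on *Secrtag*, a secretagogin-like calcium sensor, and *Syt4*, a synaptotagmin. *Secrtag* had a UMI in 88.7% of these cells at 60 hpf and 92.9% at 56 hpf, and in 0.294% and 0.709% of cells outside both classes. This contrast follows from the rule, since *Secrtag* is a marker that defines the class, and it does not test whether the cells are neurons. Pigment-marker cells (*Mif4*, *Pks1*, *Hox11/13c*) were 255 (2.84%, interval 2.51 to 3.21) at 60 hpf and 143 (3.98%, interval 3.36 to 4.67) at 56 hpf. The level of *Mif4* itself was 494 CPM at 60 hpf and 981 CPM at 56 hpf, so a lower share of pigment-marker cells and less *Mif4* per cell were not separated, and unthinned cells gave 6.22% at 60 hpf and 5.55% at 56 hpf. In each library 4 cells met both rules and were left out of both classes.

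Within neural-marker cells, *Phox2* had a UMI in 13 of 558 cells (2.33%, interval 1.25 to 3.95) at 60 hpf and in 23 of 211 cells (10.9%, interval 7.04 to 15.9) at 56 hpf. In pigment-marker cells, which should lack it, the share was 1 of 251 cells (0.398%) at 60 hpf and 0 of 139 at 56 hpf. A count of 0 was taken to allow up to 3 cells, here 2.16%, which is not a Clopper-Pearson limit. Neural-marker cells had a median of 1399 UMIs at 60 hpf and 1097 at 56 hpf, and pigment-marker cells 752 and 834. The summed level in neural-marker cells was 55.2 CPM at 60 hpf and 500.01 CPM at 56 hpf. *PaxA*, a Pax factor on the study's list of rudiment factors, had a UMI in 1.61% of neural-marker cells at 60 hpf (interval 0.74 to 3.04) and 5.69% at 56 hpf (interval 2.97 to 9.72). *Syt12*, another synaptotagmin, had 156 CPM in these cells at 60 hpf and 364 CPM at 56 hpf, while *Ngfffap*, which was among the 12 largest rises, had 330.3 CPM at 60 hpf and 136 CPM at 56 hpf. *Ngfffap* had a UMI in 11.1% of neural-marker cells at 60 hpf (interval 8.63 to 14.0) and 4.74% at 56 hpf (interval 2.30 to 8.54). *Slc18a2* was seen in 3.76% at 60 hpf and 0.474% at 56 hpf, and *Opsin3.1* in 5.73% at 60 hpf and 1.90% at 56 hpf, with intervals that overlap for both. Summed over the list, neural transcription factors held 4109 CPM in neural-marker cells at 60 hpf and 7152 CPM at 56 hpf, but 2193 and 2453 CPM in the cells outside both classes. *Gria1* was mostly seen outside neural-marker cells, since 6 of its 227 thinned cells at 60 hpf and 0 of 34 at 56 hpf were in that class.

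**Figure D4:**
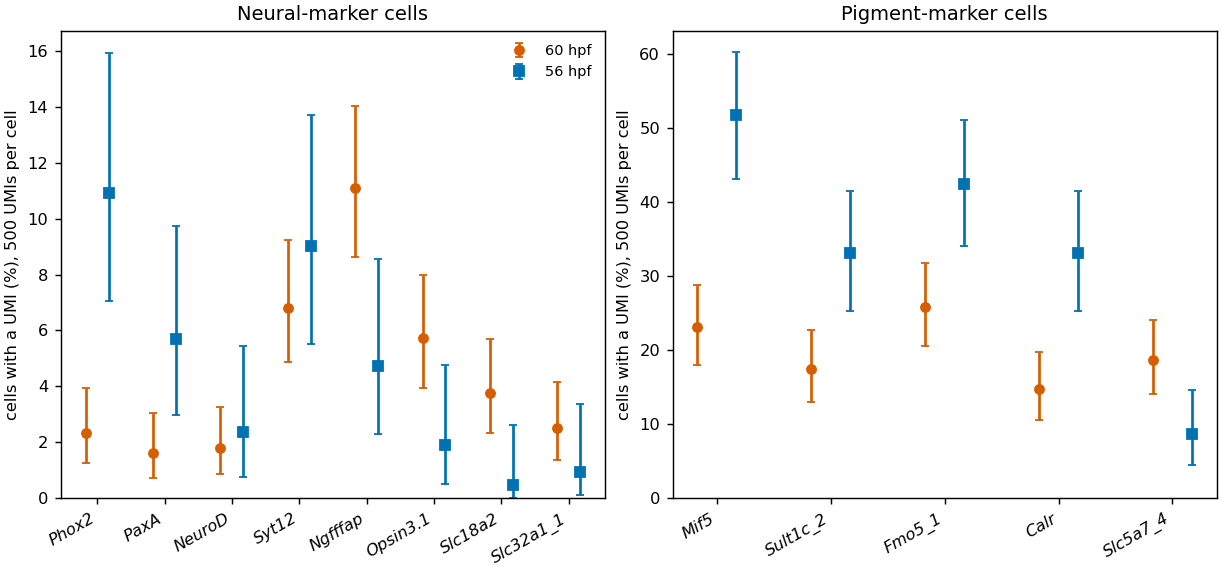
Percentage of neural-marker cells (left) and pigment-marker cells (right) with at least 1 UMI of each gene after thinning to 500 UMIs per cell, 60 hpf as circles and 56 hpf as squares, with Clopper-Pearson 95% intervals. *Phox2* stands at 2.33% against 10.9%, and *Mif5* at 23.1% against 51.8%.

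Several pigment-cell genes were lower within pigment-marker cells as well as in the whole library. Of 23 measured members of the pigment list, 3 were at least 2-fold lower and 0 higher (median -0.46, or -0.18 relative to all genes), and 2 were lower on the relative scale. *Mif5*, a paralog of the marker *Mif4*, had 41.9 CPM at 60 hpf and 111 CPM at 56 hpf. It had a UMI in 23.1% of pigment-marker cells at 60 hpf (interval 18.04 to 28.8) and 51.8% at 56 hpf (interval 43.2 to 60.3), and in 1.08% and 0.474% of neural-marker cells. *Sult1c_2*, a sulfotransferase, was seen in 17.5% of pigment-marker cells at 60 hpf and 33.1% at 56 hpf, and in 0.358% and 0.948% of neural-marker cells. *Fmo5_1*, a flavin monooxygenase, was seen in 25.9% at 60 hpf and 42.4% at 56 hpf, and in 1.08% and 1.42% of neural-marker cells. *Slc5a7_4*, named for the choline transporter, differed from these, with 46.6 CPM at 60 hpf and 24.3 CPM at 56 hpf and a UMI in 18.7% of pigment-marker cells at 60 hpf against 8.63% at 56 hpf, with intervals that overlap. *Pks1* had 47.2 CPM at 60 hpf and 38.2 CPM at 56 hpf. A further pigment marker of the study, *fmo*, had no UMI in either library under that symbol.

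The lower level of the ER list was present in each class of cells and at each depth. Its sum was 3734 CPM in neural-marker cells at 60 hpf and 8140 CPM at 56 hpf, 2157 and 4214 CPM in pigment-marker cells, and 3067 and 7065 CPM in the cells outside both classes. In cells with 500 to under 1000 UMIs the ratio of 60 hpf over 56 hpf was 0.55 (interval 0.53 to 0.57), and in cells with at least 2000 UMIs it was 0.33 (interval 0.32 to 0.34). The ratios of the proteasome, replication and mitosis lists also were below 1 in all 6 sets of cells. For oxidative phosphorylation the ratio in neural-marker cells was 0.99. Ribosomal proteins were higher in all 6 sets, by 1.38-fold in the shallowest cells and 1.04-fold in the deepest.

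Tubulin and *Apob* transcripts were seen in a larger share of pigment-marker cells too. *Apob* had a UMI in 29.1% of pigment-marker cells at 60 hpf (interval 23.5 to 35.1) and 6.47% at 56 hpf (interval 3.003 to 11.9). *Atub13* (HER_35876.t1) had a UMI in 21.9% of them at 60 hpf and 5.76% at 56 hpf. In the cells outside both classes the same 2 genes were seen in 71.8% and 72.2% at 60 hpf and 52.3% and 51.8% at 56 hpf. Free RNA in the droplets can give such UMIs, and its part in these differences was not tested.

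**Figure D5:**
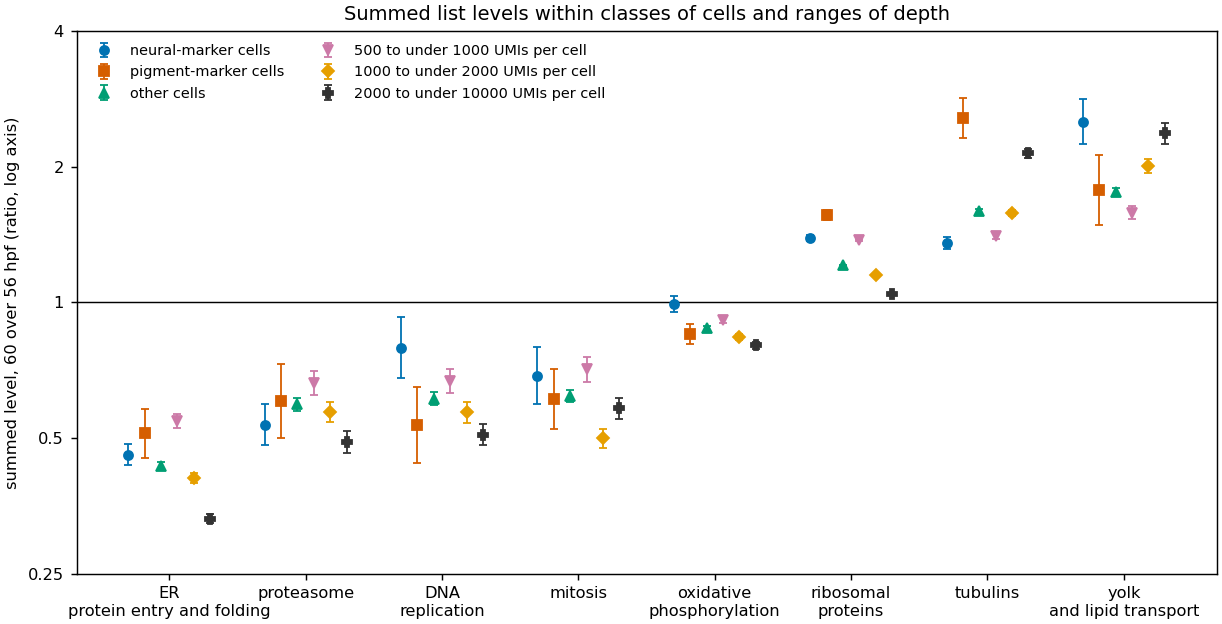
Ratio of the summed level of 8 lists at 60 hpf over 56 hpf on a log axis, within neural-marker, pigment-marker and other cells and within 3 ranges of UMIs per cell. Bars are 95% counting intervals. The ER list is between 0.33 and 0.55 in all 6 sets of cells, and the list for yolk and lipid transport is between 1.58 and 2.52. In the whole libraries *Apob* made up most of the sum of the latter list.

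Transcription factors that the study lists as candidates for patterning the adult rudiment had a median near that of all genes. The list matched 34 features, of which 32 passed the filter, and the median was 0.11 relative to all genes. Of the 32, 4 were at least 2-fold lower and 0 higher, both by CPM and on the relative scale. Of all genes, 6.49% were lower by CPM and 2.33% on the relative scale. The study picked this list from the same libraries. The 4 were *Acsc*, *PaxA*, *Tbx6/16* and *Hey* (HER_22398.t1). *PaxA* had 7.99 CPM at 60 hpf and 33.1 CPM at 56 hpf. *Tbx6/16*, a T-box factor, had 9.56 CPM at 60 hpf and 28.6 CPM at 56 hpf. *Hey*, a target of Notch signaling, had 2.55 CPM at 60 hpf and 17.6 CPM at 56 hpf, while a second feature of that name (HER_37767.t1) had 29.1 CPM at 60 hpf and 17.6 CPM at 56 hpf. Both *Hey* features had 74 UMIs at 56 hpf, and how reads were divided between them was not tested.

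Most of the study's putative rudiment ectoderm markers were lower, and none of its verified ones was past 2-fold. *B4galt6_3*, a glycosyltransferase summed over 5 features, had 217 CPM at 60 hpf and 583 CPM at 56 hpf, and was 2.68-fold lower (interval 2.54 to 2.83). *Smadip*, a zinc-finger repressor summed over 2 features, had 30.7 CPM at 60 hpf and 77.7 CPM at 56 hpf. With *Acsc*, 3 of the 4 putative markers were at least 2-fold lower, and *Giant*, the fourth, had 118 CPM in both libraries. Of the 5 verified markers, *Egfi*, an extracellular matrix protein, had 1256 CPM at 60 hpf and 915 CPM at 56 hpf over its features, *Msx* had 120 CPM at 60 hpf and 89.9 CPM at 56 hpf, and *Dlx*, *Wnt3* and *Fn3/Egf_2* had ratios of 0.93, 0.88 and 1.11.

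None of the 8 genes stained at 56 hpf was past 2-fold with its features summed. *Hox7*, a patterning factor, had 189 CPM at 60 hpf and 153 CPM at 56 hpf (ratio 1.24, interval 1.13 to 1.35). *FoxQ2_1*, a forkhead factor of the animal pole, had 83.5 CPM at 60 hpf and 48.2 CPM at 56 hpf (ratio 1.73, interval 1.49 to 2.03), the highest value of the 5 libraries. *Lim1* had 181 CPM at 60 hpf and 150 CPM at 56 hpf. *Onecut*, a ciliary band factor, had 246 CPM at 60 hpf and 273 CPM at 56 hpf, and *Hmx*, a homeobox factor, 57.3 CPM at 60 hpf and 70.8 CPM at 56 hpf. For *Onecut* and *Hmx* the sign of the difference turned positive under size factors or TMM factors. The 10 features named *Dynlc2*, 8 of them with a UMI, together had 588 CPM at 60 hpf and 890 CPM at 56 hpf, after 81.4, 78.5 and 189 CPM at 36, 42 and 48 hpf. *Dynlc2-4c* made up most of this, with 491 CPM at 60 hpf and 743 CPM at 56 hpf and up to 729 UMIs in 1 cell at 60 hpf. It had a UMI in 2.04% of thinned cells at 60 hpf (interval 1.76 to 2.35) and 2.56% at 56 hpf (interval 2.07 to 3.13). The features named *Dynlc2-4d* were 3.22-fold and 2.41-fold lower at 60 hpf, and the probes were not assigned to a copy.

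Signaling and patterning lists held few genes past 2-fold, as did all genes, of which 6.49% were lower and 0.569% higher. In the Wnt list, *Lrp6* (HER_41497.t1), a coreceptor, was 2.36-fold lower, though not past 2-fold on the relative scale, and *Znrf3* and *Fzd4*, a negative regulator and a receptor, were 1.55-fold and 1.51-fold higher, the only members at least 1.5-fold higher with an interval above 1. The list's median was 0.23 relative to all genes. The TGF-beta and BMP list had 1 of 19 members higher and 1 lower, or 1 and 0 on the relative scale, with a median of 0.16 relative to all genes. *Chordin*, an inhibitor of BMP ligands, had 12.1 CPM at 60 hpf and 3.58 CPM at 56 hpf from 147 and 15 UMIs. *Alk3/6*, a BMP receptor, had 19.9 CPM at 60 hpf and 44.1 CPM at 56 hpf, and the ligand *Admp* 15.7 CPM at 60 hpf and 29.6 CPM at 56 hpf. Of 6 measured Hox and ParaHox genes, 0 were past 2-fold (median 0.52 relative to all genes). *Lox* had the list's largest rise, with 86.3 CPM at 60 hpf and 53.9 CPM at 56 hpf. Among 23 nuclear receptors 0 were past 2-fold on the log2(CPM + 1) scale, or 1 upward on the relative scale (median 0.13 relative to all genes). By plain CPM ratio *Pnr* and *Thr_1* were 2.07-fold and 2.01-fold lower. *Thr_1*, named for the thyroid hormone receptor, had 5.69 CPM at 60 hpf and 11.4 CPM at 56 hpf, and *Nr4a* 15.7 CPM at 60 hpf and 10.3 CPM at 56 hpf.

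Immediate early and stress genes did not move as a group. Of 42 measured members, 1 was at least 2-fold higher and 4 lower, or 1 and 1 on the relative scale, and the median was -0.02 relative to all genes. *Klf2/4*, a Krüppel-like factor, had 189.7 CPM at 60 hpf and 90.6 CPM at 56 hpf, and *Jun*, an AP-1 subunit, had 364 CPM at 60 hpf and 223 CPM at 56 hpf. The chaperone *Hsp901* had 49.4 CPM at 60 hpf and 107 CPM at 56 hpf, and the mitochondrial chaperone *HspD1* 17.1 CPM at 60 hpf and 43.6 CPM at 56 hpf.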

How the data were processed

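The authors processed 10x Chromium 3′ v3.1 libraries with Cell Ranger 3.1.0 and deposited, for each library, UMI counts per feature and barcode, whole numbers without normalization. The build and annotation used for counting are not given in the sources used here; for other steps the study took gene models from an earlier genome paper on this species. Per the labels, 1 library stands for each age. Cells with more than 200 genes, fewer than 10000 UMIs and fewer than 4000 genes were kept, as in the study, which removed 6 barcodes from the 56 and 60 hpf libraries. UMIs were summed per library (Python 3.11.15, numpy 2.4.6, scipy 1.17.1) and scaled to CPM. A gene counted as changed at 2-fold on log2(CPM + 1), with a mean of at least 5 CPM. Intervals of ratios are exact conditional intervals for 2 Poisson counts and those of shares Clopper-Pearson, both at 95%. Both cover counting error only. The calculation was tested on simulated data. Scaling alternatives used DESeq2 1.42.0 and edgeR 4.0.16 factors (R 4.3.3).

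Genes were named by rule: the 12 largest rises and falls among named genes with a mean of at least 20 CPM, up to 3 genes each way per list that changed at least 1.5-fold with an interval that leaves out 1, the genes stained at 56 hpf, and markers or rudiment factors past 2-fold. Genes chosen after their values were seen are marked, and other study markers are given as markers, whatever their change. Members and the 33 lists, 3 of them added later, were chosen with earlier results of these data known, and misassigned symbols were removed from lists by hand. Other ages served for levels only.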

Additional observations from a re-analysis of the deposited data

How the results depend on the processing

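The counts of genes at least 2-fold higher and lower at 60 hpf, 59 and 673, moved most with the scaling: size factors gave 206 and 197, TMM factors 235 and 170, and differences read from the median of all genes, an alternative chosen after seeing the data, 173 and 241. Without a filter on low values they were 128 and 1146, with a mean of at least 20 CPM 29 and 296, with a pseudocount of 5 CPM 30 and 289, and in cells with more than 500 genes 93 and 963. They stayed within 1.5 times with ribosomal genes left out of the totals, all deposited barcodes, equal weight per cell, the 60 hpf library thinned to the UMIs of 56 hpf, barcodes of both libraries left out, or an interval that leaves out 1. Among the 153 named genes, only those whose interval left out 1 were checked for a change of sign, and 3 changed. These were *Hmx* (0.0352 with size factors, 0.0727 with TMM), *Dynlc2-5b* (0.0421 and 0.0795) and *Onecut* (0.19 and 0.23). *Dynlc2-6b*, whose ratio had an interval of 0.649 to 1.03, was not checked. Of 33 list medians relative to all genes, 1 was counted as changing sign, that of forkhead and Sox factors (-0.0249 without a filter). Medians that lay near that of all genes to begin with were not counted, and several also changed sign. That of the study's rudiment transcription factors went from 0.11 to -0.05 without a filter, and to -0.004 in cells with more than 500 genes. The lists of nuclear receptors, muscle, histones, and opsins and phototransduction also changed sign under a setting. The share of pigment-marker cells was 3.51% at 60 hpf and 4.34% at 56 hpf with at least 2 UMIs, and 6.22% at 60 hpf and 5.55% at 56 hpf without thinning, which turned its direction. The share of neural-marker cells was 6.498% at 60 hpf and 6.505% at 56 hpf with at least 2 UMIs, and 9.56% and 8.33% without thinning. Another rule, also chosen after seeing the data, asked for at least 3 UMIs over *Secrtag* and *Syt4* together. It used no *CalmL1* and did not require 2 markers, and gave 2.697% at 60 hpf and 2.697% at 56 hpf. Of 358 shares of cells with a UMI, 320 moved beyond their interval without thinning. Thinning only removes UMIs, so at 60 hpf, where it left out no cell, these shares could not be lower without it. The cause of the other shifts was not tested. At 56 hpf, 5 CPM stood for 21.0 UMIs, which limits the precision of low genes. No paired analysis was possible because each age had 1 library.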

Other observations

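Other gene groups had few members past 2-fold, against 6.49% of all genes lower and 0.569% higher. Of 118 measured immune and blastocoelar genes, 5 were at least 2-fold lower and 1 higher, which turned to 2 lower and 4 higher relative to the median of all genes, and the list's median was 0.04 on that scale. Of 4 measured features named *Nlr31*, NOD-like receptors, the 2 largest falls were 1.73 and 18.1 CPM at 60 hpf against 9.06 and 46.5 CPM at 56 hpf. The blastocoelar marker *Astacin4*, a metalloprotease summed over 2 features, had 451 CPM at 60 hpf and 304 CPM at 56 hpf, whereas *Scl*, also a marker of these cells, had 21.8 CPM at 60 hpf and 35.1 CPM at 56 hpf, and both were named after their values were seen. In the extracellular matrix list, 1 of 43 was higher and 1 lower, with a median of 0.15 relative to all genes. Its laminin *Lamb2_1* had 306 CPM at 60 hpf and 191 CPM at 56 hpf, and *Egfiii* 92.0 CPM at 60 hpf and 171 CPM at 56 hpf. Among 33 proteases and inhibitors, *Timp4b*, a metalloprotease inhibitor, had 1.90 CPM at 60 hpf and 10.97 CPM at 56 hpf from 23 and 46 UMIs. No cytochrome P450 of 37 was past 2-fold on the log2(CPM + 1) scale, and their median was 0.33 relative to all genes. By plain CPM ratio *Cyp51* was 2.05-fold lower.

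The markers of undifferentiated cells were almost without counts in both libraries. *Ccnr2*, *ClvhH1*, *Guan/Cyc* and *Igf1* had 12, 19, 3 and 8 UMIs at 60 hpf and 2, 3, 4 and 2 UMIs at 56 hpf.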
